A study of Mus musculus with 41 samples.

Results

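*Cxcl12* and *Ccl11* are chemokine genes that connective tissue cells of the skin transcribe, and both were measured among 54 mouse target genes on a TaqMan qPCR panel. The 2 genes (Gene ID 20315 for *Cxcl12* and 20292 for *Ccl11*) were chosen by name, as stromal chemokines, with earlier results of these data known. The tissue was skin of 41 female NSG mice, an immunodeficient strain that lacks mature lymphocytes, with 1 sample per mouse. The sham group held 7 mice at 1 week and 6 at 6 weeks, the P group (an implanted degradable PLACL nanomesh) 6 and 8, and the P+eMSC group (the same nanomesh with human SUSD2+ endometrial mesenchymal stem/stromal cells placed on it) 7 and 7. The ages of the mice were not given in the labels or the methods. The eMSC came from several donors and carried an mCherry label, some mice had also served in an earlier study, and which cells or mice these were was not given per sample. Whether the mouse assays also read the human transcripts was not tested here.

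CXCL12 is the ligand of the receptor CXCR4. It holds hematopoietic and progenitor cells near the stroma that secretes it, and it draws CXCR4-bearing leukocytes and endothelial progenitors into wounds. CCL11, or eotaxin, binds CCR3 and attracts eosinophils. Dermal fibroblasts are a known source of both, whereas most other chemokines of an inflammatory panel are made in quantity by activated macrophages and neutrophils. CXCL12 is usually described as a constitutive, homeostatic chemokine and CCL11 as one that type 2 cytokines induce.

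The level of a gene is given as the Ct of 18S ribosomal RNA minus the Ct of the gene in the same mouse. Ct is the PCR cycle at which the signal crosses a threshold, so a level closer to 0 stands for more transcript, and 1 unit is 1 cycle, or about a doubling. Both genes had a Ct in 41 of 41 mice. The 18S Ct lay between 6.20 and 7.79, and its group medians between 6.60 and 6.94. Of the 40 values without a Ct in the table, 31 belonged to mouse 52, a P mouse at 6 weeks that also had the highest 18S Ct. The main shifts that include it are therefore also given without it. Ranked by median level, 2 target genes lay above *Cxcl12* and 9 above *Ccl11*, a rank that also depends on the efficiency of each assay.

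*Cxcl12* was detected in all 6 groups at overlapping levels. In the sham mice at 1 week its level ran from -7.97 to -3.25 with a median of -6.33. The P mice at 1 week spanned -8.53 to -5.14 (median -6.80), and the P+eMSC mice at 1 week spanned -9.65 to -4.24 (median -6.64). The ranges of the 3 treatments at 1 week overlapped over most of their length, and the highest single value in the study was that of sham mouse 2269.

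At 6 weeks the sham mice had *Cxcl12* levels of -6.78 to -3.98 (median -6.01). The P mice at 6 weeks had levels of -17.34 to -5.57 (median -6.94), or -8.28 to -5.57 (median -6.78) without mouse 52. The P+eMSC mice at 6 weeks had levels of -7.54 to -3.92 (median -5.00). Here 4 of the 8 P mice lay below the lowest sham mouse, and 4 of the 7 P+eMSC mice lay above the highest P mouse, while the remaining mice of these groups overlapped.

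*Ccl11* showed a similar arrangement about 1 cycle lower. Its level in the sham mice at 1 week was -8.81 to -6.29 (median -7.60). The P mice at 1 week had -9.63 to -6.14 (median -8.11) and the P+eMSC mice -9.84 to -4.46 (median -7.63). The highest *Ccl11* level in the study was that of mouse 2358 in the last of these groups, and the ranges overlapped.

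At 6 weeks the *Ccl11* level of the sham mice was -7.72 to -4.89 (median -6.91). The P mice at 6 weeks spanned -15.15 to -6.95 (median -8.01), or -9.96 to -6.95 (median -7.91) without mouse 52. The P+eMSC mice at 6 weeks spanned -8.38 to -4.63 (median -6.59). All 8 P mice lay below the sham median and 6 of them below the lowest sham mouse, although mice 437 (-6.95) and 2356 (-7.70) lay within the sham range.

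**Figure D1:**
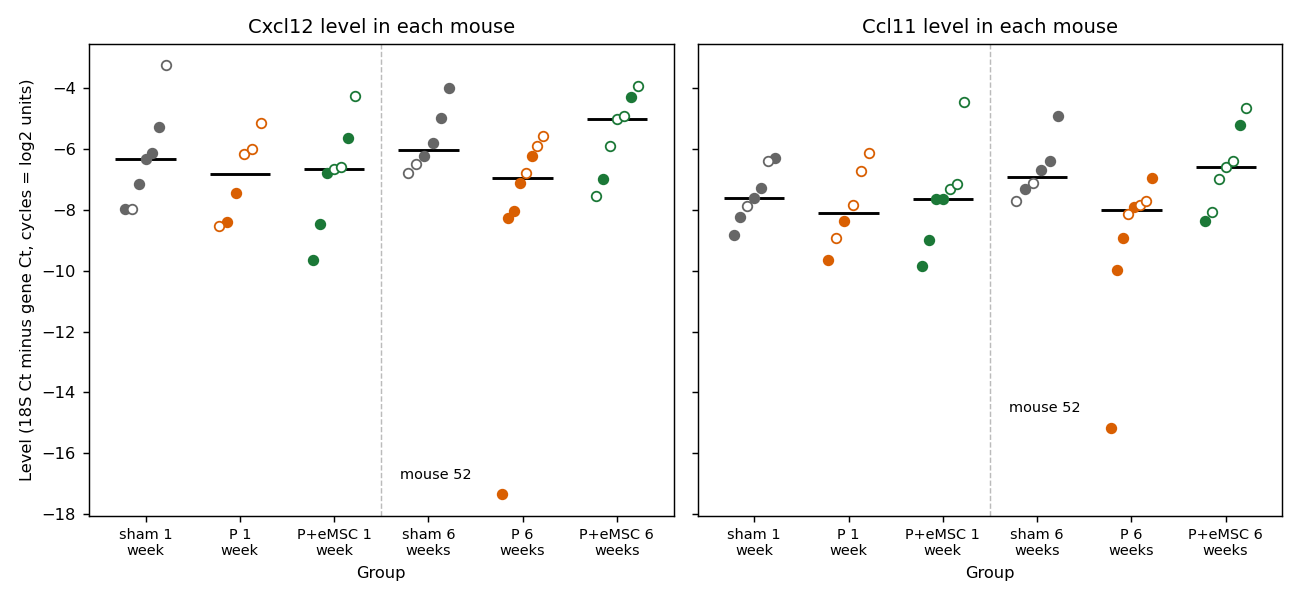
Level of *Cxcl12* (left) and *Ccl11* (right) in each of the 41 mice, as 18S Ct minus gene Ct in cycles (vertical axis), by group (horizontal axis). Filled points are mice numbered below 1000, open points mice numbered above 2000, and black lines group medians. The groups overlap for both genes, and mouse 52 lies at -17.34 and -15.15, far below the other P mice at 6 weeks.

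Ordered by median, *Cxcl12* was highest in P+eMSC at 6 weeks, followed by sham at 6 weeks, sham at 1 week, P+eMSC at 1 week, P at 1 week and P at 6 weeks. The order for *Ccl11* differed only in its last 2 places, where P at 6 weeks stood just above P at 1 week. No pair of neighbours in either order was separated. Their ranges overlapped, and each gap between neighbouring medians, at most 1.01 for *Cxcl12* and 0.69 for *Ccl11*, was smaller than the smaller SD of the 2 groups.

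The first comparison asked whether the nanomesh alone changed the stromal chemokines relative to the operated skin. At 6 weeks *Ccl11* was lower in P than in sham by a Hodges-Lehmann shift (the median of all differences between a mouse of one group and a mouse of the other) of -1.48 (95% interval -3.57 to -0.40), or 0.358 of the sham level. The exact Mann-Whitney p was 0.00799 and the Benjamini-Hochberg adjusted p over the 54 genes was 0.0551, so *Ccl11* did not pass the adjusted threshold of 0.05. Without mouse 52 the shift was -1.26 (exact p = 0.0140, adjusted p = 0.0944). *Cxcl12* had a shift of nearly the same size, -1.40, but with a wider interval (-3.31 to 0.22) that included 0 (exact p = 0.108, adjusted p = 0.307). The shift of *Cxcl12* was -1.11 without mouse 52 (exact p = 0.181).

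Over the whole panel, 2 of the 54 genes (3.70%) passed the adjusted threshold in this comparison, both lower in P. They were *Timp2* and *Timp3*, inhibitors of the matrix metalloproteinases, with shifts of -1.70 and -1.84 and an adjusted p of 0.0360 each by the exact Mann-Whitney test. At an unadjusted p below 0.05 there were 12 genes (22.2%), all lower in P, and 12 again without mouse 52. *Ccl11* was among them and *Cxcl12* was not. The median shift of the 54 genes was -0.83, and 43 of the 54 lay below 0. In bulk tissue, fewer cells that express a gene and less of its RNA per cell cannot be told apart.

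Calls in this comparison depended on single mice. Leaving out mouse 437, the P mouse with the highest *Ccl11* level, gave *Ccl11* a shift of -1.68 and an adjusted p of 0.0252 by the exact test, and brought the number of genes called to 10. Leaving out sham mouse 123 brought it to 8, and leaving out any other single mouse brought it to 0.

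The titles number the mice either below 1000 or above 2000, and the labels do not say what the numbers stand for. Among the mice numbered below 1000 (5 P and 4 sham at 6 weeks) the P vs sham shift was -2.36 for *Cxcl12* and -2.60 for *Ccl11*, each with an exact p of 0.0317. Among those numbered above 2000 (3 P and 2 sham) it was 0.74 for *Cxcl12*, the opposite sign, and -0.49 for *Ccl11*, each with an exact p of 0.40. Permuted within the number series, the exact p was 0.0810 for *Cxcl12* and 0.0198 for *Ccl11*, with adjusted p of 0.257 and 0.153. Mouse 52 is numbered below 1000. Without it the shift in that series was -2.18 for *Cxcl12* and -2.15 for *Ccl11*, each with an exact p of 0.0571, and the exact p permuted within the series was 0.10 and 0.0114.

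At 1 week the P and sham mice differed by less than their spread in both genes. The shift was -0.49 for *Cxcl12* (95% interval -2.73 to 1.79, exact p = 0.628) and -0.48 for *Ccl11* (-2.03 to 1.13, exact p = 0.534). No gene of the panel passed the adjusted threshold (0%), and 2 genes (3.70%), *Pdgfa* and *Vegfa*, had an unadjusted p below 0.05. Both intervals still allow a fall of more than 2 cycles.

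No difference from sham was detected for the nanomesh with eMSC. At 6 weeks the shift of P+eMSC against sham was 0.20 for *Cxcl12* (95% interval -1.31 to 1.87, exact p = 0.836) and 0.13 for *Ccl11* (-1.68 to 1.92, exact p = 0.945). At 1 week it was -0.45 for *Cxcl12* (-3.18 to 1.38, exact p = 0.620) and -0.048 for *Ccl11* (-1.61 to 1.51, exact p = 0.805). None of the 54 genes was called in either comparison, with or without adjustment (0%), and the intervals leave room for differences of more than 1 cycle in both directions. At 6 weeks the sign of the shift was opposite in the 2 number series for both genes (-0.52 and 1.52 for *Cxcl12*, -0.69 and 0.73 for *Ccl11*, below 1000 and above 2000). These held 2 P+eMSC and 4 sham mice below 1000, and 5 and 2 above 2000.

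The effect of adding eMSC was given by P+eMSC against P, the comparison the study was built on. At 6 weeks both chemokines were higher with eMSC by nearly the same amount, and neither passed the adjusted threshold. The shift of *Ccl11* was 1.73, or 3.32-fold (95% interval 0.037 to 3.73, exact p = 0.0401, adjusted p = 0.209). The shift of *Cxcl12* was 1.71, or 3.28-fold (-0.0072 to 3.74, exact p = 0.0541, adjusted p = 0.209). For each gene 4 of the 7 P+eMSC mice lay above the highest P mouse and 3 of the 8 P mice lay below the lowest P+eMSC mouse. Without mouse 52 the shifts were 1.51 for *Ccl11* (exact p = 0.0728) and 1.30 for *Cxcl12* (exact p = 0.0973).

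No gene of the panel passed the adjusted threshold in this comparison (0%). Unadjusted, 10 of the 54 genes (18.5%) had a p below 0.05, all higher with eMSC, and *Ccl11* ranked ninth by p while *Cxcl12* ranked twelfth. Without mouse 52 there were 8. The median shift of all 54 genes was 1.15, with 47 of 54 above 0, so that both chemokines lay above the middle of a panel that was displaced as a whole. The shift kept its sign within both number series (2.38 and 0.88 for *Cxcl12*, 2.23 and 1.26 for *Ccl11*, below 1000 and above 2000). These held 2 P+eMSC and 5 P mice below 1000, and 5 and 3 above 2000, so treatment and number series were partly tied. Permuted within the series, the exact p was 0.245 for *Cxcl12* and 0.0918 for *Ccl11*. Without mouse 52 the shift among the mice numbered below 1000 (2 P+eMSC and 4 P) was 1.62 for *Cxcl12* (exact p = 0.267) and 1.67 for *Ccl11* (exact p = 0.533). The P mice at 6 weeks enter both this comparison and P vs sham, so the lower level in one and the higher level in the other are not independent.

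At 1 week P+eMSC and P were not separated. The shift was -0.0064 for *Cxcl12* (95% interval -2.22 to 1.93, exact p = 1) and 0.39 for *Ccl11* (-1.49 to 2.27, exact p = 0.836), and 0 of the 54 genes (0%) were called with or without adjustment.

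Over time, the sham mice had higher median levels of both chemokines at 6 weeks than at 1 week, by a shift of 0.77 for *Cxcl12* (95% interval -1.20 to 2.18, exact p = 0.445) and 0.80 for *Ccl11* (-0.45 to 2.11, exact p = 0.295). The P mice had shifts of -0.14 for *Cxcl12* (-2.30 to 1.62, exact p = 0.950) and -0.45 for *Ccl11* (-2.80 to 1.06, exact p = 0.573). The P+eMSC mice had shifts of 1.59 for *Cxcl12* (-0.76 to 3.46) and 0.92 for *Ccl11* (-0.78 to 2.86), each with an exact p of 0.259. None of these passed the test. Without mouse 52 the P mice had shifts of 0.18 for *Cxcl12*, the opposite sign, and -0.14 for *Ccl11*, each with an exact p of 0.836. No gene was called after adjustment in the 3 comparisons of weeks (0%), and 2 genes (3.70%), *Tgfb2* and *Tgfb3* in sham, had an unadjusted p below 0.05.

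An interaction term in limma tested whether a treatment difference was larger at one week than at the other. For P against sham the difference changed by -1.80 (SE 1.64) for *Cxcl12* and -1.94 (SE 1.31) for *Ccl11*, with a limma adjusted p of 0.736 for both. For P+eMSC against P it changed by 2.56 (SE 1.61) for *Cxcl12* and 2.10 (SE 1.29) for *Ccl11*, with a limma adjusted p of 0.485 for both. For P+eMSC against sham it changed by 0.76 (SE 1.63) and 0.16 (SE 1.31), with a limma adjusted p of 0.999 for both. None of the 54 genes had an interaction at an adjusted or unadjusted p below 0.05 in limma. Without mouse 52 the P against sham estimates were -0.49 for *Cxcl12* and -1.07 for *Ccl11*, and the P+eMSC against P estimates were 1.25 and 1.23.

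The 2 chemokines moved together from mouse to mouse. Their levels had a Spearman correlation of 0.87 over the 41 mice (0.86 without mouse 52), a description only, because the points share the 18S value and the same RNA and preamplified cDNA. The difference between them within a mouse, Ccl11 Ct minus Cxcl12 Ct, needs no 18S. *Cxcl12* had the lower Ct in 38 of 41 mice, and the median difference was 0.91. The exceptions were mouse 52 (-2.19), sham mouse 2354 at 1 week (-0.11) and P mouse 2396 at 1 week (-0.036).

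**Figure D2:**
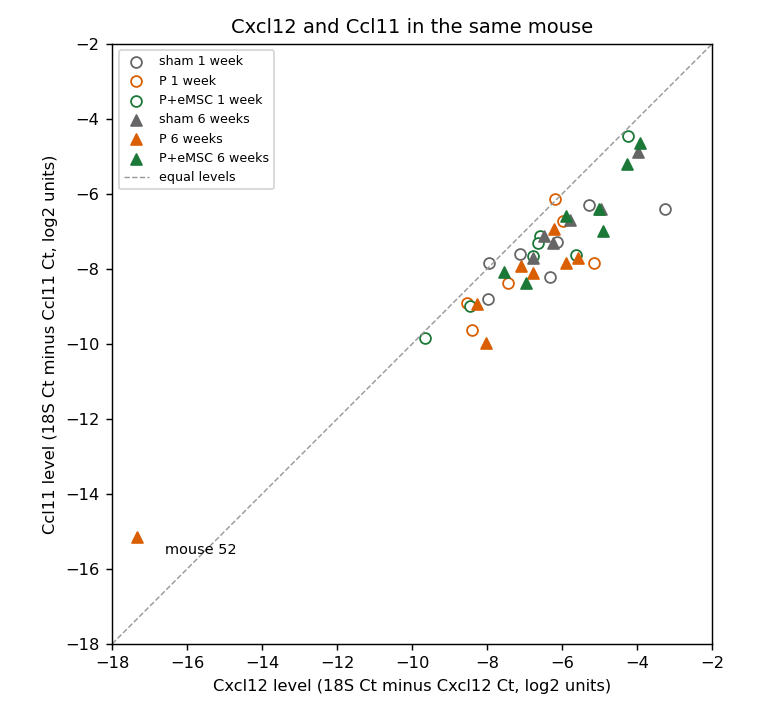
Level of *Ccl11* (vertical axis) against level of *Cxcl12* (horizontal axis) in the same mouse, both as 18S Ct minus gene Ct in log2 units, for 41 mice. Open circles are mice at 1 week, filled triangles mice at 6 weeks, and the dashed line marks equal levels. The mice lie along a band just below the line except for 3 above it, 1 of them mouse 52.

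This within-mouse difference did not separate the groups. Its medians were 1.00 in sham, 0.84 in P and 0.54 in P+eMSC at 1 week, and 0.92, 1.07 and 0.93 at 6 weeks in the same order. Over all mice the largest shift among the 9 comparisons was 0.39 between 6 weeks and 1 week in P+eMSC (95% interval -0.15 to 1.19, exact p = 0.0973, adjusted p = 0.876 over the 9). Between P and sham at 6 weeks it was 0.13 (-0.62 to 1.04, exact p = 0.852), and between P+eMSC and P at 6 weeks it was -0.059 (-1.02 to 0.74, exact p = 0.867). Without mouse 52 these 2 shifts were 0.41 (exact p = 0.534) and -0.12 (exact p = 0.535), and that between the weeks in P was 0.51 (exact p = 0.445). At 6 weeks the intervals over all mice leave a change of up to about 1 cycle in the balance of the 2 chemokines. The sham mice at 6 weeks were the most even, from 0.64 to 1.43, while the sham mice at 1 week ran from -0.11 to 3.15.

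The differences against sham and against P at 6 weeks depended on the reference. The level of each gene was also taken against the median of the panel in the same mouse, over the genes with a Ct in every mouse of the comparison (23 of the 54 where P at 6 weeks was included). Both chemokines were among these genes, so each was part of its own reference. In P mouse 2356 and P+eMSC mouse 2317 at 6 weeks, *Ccl11* itself was the median of the 23 genes. How far this moved the shifts was not tested. On the panel scale P vs sham at 6 weeks gave -0.27 for *Ccl11* (95% interval -0.77 to 0.40, exact p = 0.414) and -0.019 for *Cxcl12* (-1.06 to 0.64, exact p = 0.950). P+eMSC vs P at 6 weeks gave 0.045 for *Ccl11* (-0.53 to 0.88, exact p = 0.719) and 0.25 for *Cxcl12* (-0.56 to 1.08, exact p = 0.613). None of these 4 shifts passed the test, and their intervals reach about 1 cycle. Mouse 52 limits the genes that can serve as this reference. Without it the median could be taken over 52 genes in P vs sham and 53 in P+eMSC vs P. P vs sham then gave -0.64 for *Ccl11* (95% interval -1.20 to -0.22, exact p = 0.0140, adjusted p = 0.378) and -0.28 for *Cxcl12* (-1.16 to 0.44, exact p = 0.366). P+eMSC vs P gave 0.58 for *Ccl11* (-0.065 to 1.201, exact p = 0.0728) and 0.36 for *Cxcl12* (-0.42 to 0.90, exact p = 0.383). With the panel as the reference, then, the *Ccl11* shifts changed when mouse 52 and the set of reference genes changed together. With the 23 genes kept and mouse 52 left out, the mean *Ccl11* level at 6 weeks was 0.47 in P, 0.82 in sham and 0.76 in P+eMSC. Over the 52 genes it was 2.46 in P and 3.14 in sham, and over the 53 genes 2.54 in P and 3.11 in P+eMSC. Shifts with the 23 genes kept were not tested without mouse 52.

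No gene was called after adjustment with the panel as the reference (0%). Unadjusted, 6 genes (11.1%) were called in P vs sham at 6 weeks, all higher, and 2 genes (3.70%) in P+eMSC vs P at 6 weeks, 1 in each direction (1.85% each), with neither chemokine among them. Without mouse 52 there were 5 genes (9.26%) in P vs sham: *Ccl11*, *Il1b*, *Timp2*, *Timp3* and *Vegfa*. Of these only *Il1b* was among the 6 called over all mice, and *Ccl11* was lower (-0.64). In P+eMSC vs P there were 3 genes (5.56%) without mouse 52, *Cxcl9*, *Tgfb3* and *Timp3*, with *Cxcl12* and *Ccl11* not among them. In P vs sham at 1 week 3 genes (5.56%) were called unadjusted. *Ccl12* and *Il1b* were higher, and *Cxcl12* was the 1 that was lower (1.85%), by -0.54 (95% interval -1.19 to -0.19, exact p = 0.0350, adjusted p = 0.421). In P+eMSC vs P at 1 week 3 genes (5.56%), *Ccl2*, *Cxcl1* and *Il10*, were called unadjusted, all lower, with *Cxcl12* and *Ccl11* not among them.

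**Figure D3:**
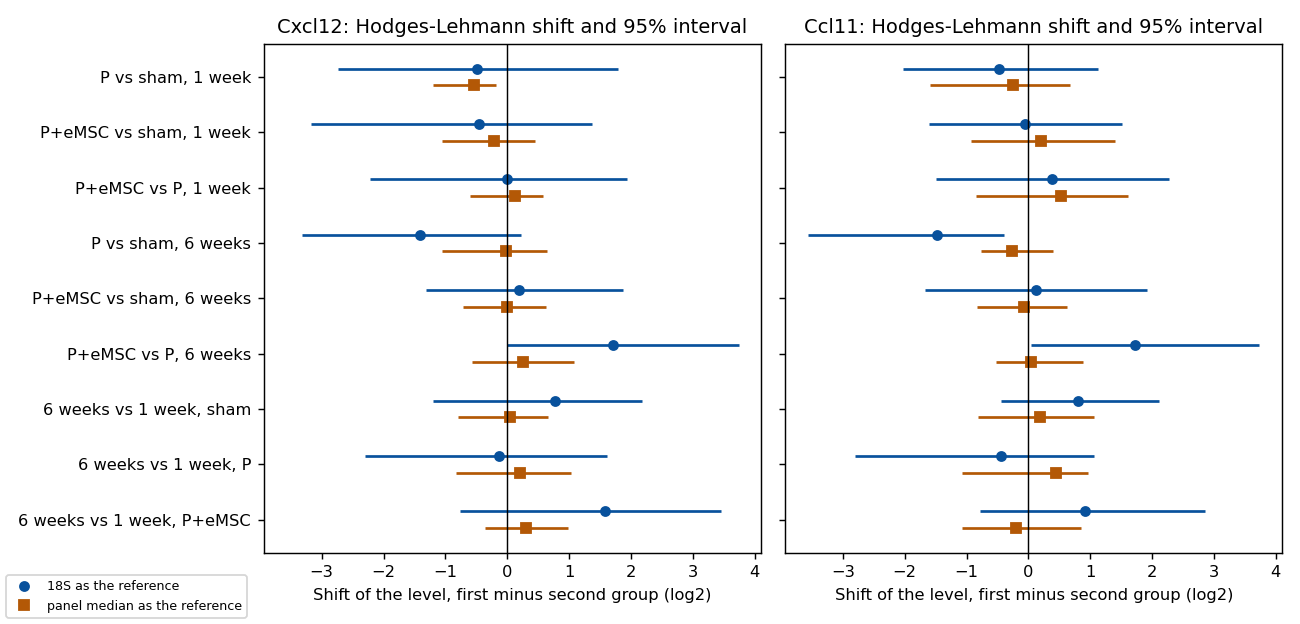
Hodges-Lehmann shift of the level (horizontal axis, log2, first group minus second) with its 95% interval for *Cxcl12* (left) and *Ccl11* (right) in the 9 comparisons, with 18S (circles) or the median of the panel (squares) as the reference. The shifts of -1.48 and 1.73 for *Ccl11* in the 6 week comparisons with P shrink to -0.27 and 0.045 against the panel over all mice. The panel median includes both chemokines.

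**Figure D4:**
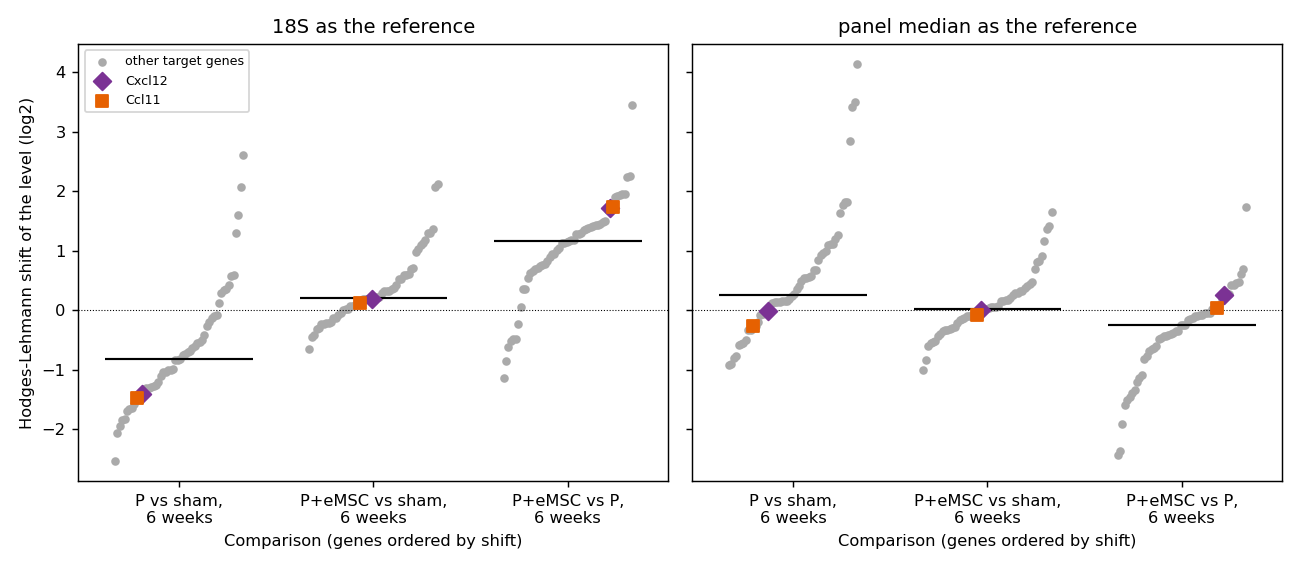
Hodges-Lehmann shift (vertical axis, log2) of each of the 54 target genes, ordered by size, in the 3 comparisons at 6 weeks, with 18S (left) or the panel median (right) as the reference. Black lines are medians over the genes. With 18S both chemokines sit on the far side of a panel whose median is -0.83 in P vs sham and 1.15 in P+eMSC vs P.

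With 18S as the reference, the other chemokine ligands of the panel lay on both sides of 0. Of a list of 17 ligands, 12 were measured. In P vs sham at 6 weeks *Ccl11* was the only ligand of the 12 with an unadjusted p below 0.05, against 12 of all 54 genes (22.2%). The 12 ligands had a median shift of -0.20 (5 above 0 and 7 below), against -0.83 over all 54 genes. In P+eMSC vs P at 6 weeks *Ccl11* and *Cxcl9*, an interferon-induced ligand of CXCR3, had an unadjusted p below 0.05. These were 2 of the 12 ligands, against 10 of all 54 genes (18.5%), and the ligand median was 0.86 against 1.15 over all genes. The shift of *Cxcl9* was 3.44 (exact p = 0.0111, adjusted p = 0.158). In P vs sham at 1 week 9 of the 12 ligands lay above 0 with a median of 1.81 (all genes -0.10), while *Cxcl12* and *Ccl11* were 2 of the 3 below 0, and none was called. The 3 receptors measured, *Ccr1*, *Ccr2* and *Ccr7*, had no call in any of the 9 comparisons with either reference. The receptors of CXCL12 and CCL11 were not analysed here.

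Over all mice the sign of the ligand medians at 6 weeks changed with the reference. With the panel median the 12 ligands had a median shift of 1.05 in P vs sham at 6 weeks (8 above 0 and 4 below, all genes 0.26). There *Ccl2*, *Ccl7* and *Ccl12*, ligands that attract monocytes, were higher at an unadjusted p below 0.05. In P+eMSC vs P at 6 weeks the ligand median was -1.11 (3 above 0 and 9 below, all genes -0.25), with *Cxcl9* higher and *Ccl2* lower at an unadjusted p below 0.05. Without mouse 52 these medians were 0.45 and -0.85 with the panel, and 0.14 and 0.35 with 18S. Leaving that mouse out also changed the set of reference genes of the panel. *Ccl2*, *Ccl7* and *Ccl12* then no longer had an unadjusted p below 0.05 with the panel. The only ligand that did was *Ccl11* in P vs sham, where it was lower, and *Cxcl9* in P+eMSC vs P. In P vs sham at 1 week, which does not include that mouse, 9 of the 12 ligands lay above 0 with the panel as well (median 1.62), *Ccl12* higher and *Cxcl12* lower at an unadjusted p below 0.05.

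The stromal matrix genes (*Col1a1*, *Col3a1*, *Col6a1*, *Col6a2*, *Col6a3* and *Mmp2*, which encode collagen chains and a collagen-degrading gelatinase) were detected in every group. In P vs sham at 6 weeks 6 of the 6 had shifts below 0 with a median of -0.91, and none was called. In P+eMSC vs P at 6 weeks 6 of the 6 lay above 0 with a median of 1.29. Of these *Mmp2* alone had an unadjusted p below 0.05 (shift 1.41, exact p = 0.0401, adjusted p = 0.209), against 10 of all 54 genes (18.5%). With 18S the shifts of both chemokines were on the same side as all 6 matrix genes in the comparisons with P at 6 weeks. Most of the panel was on that side too, 43 of 54 genes below 0 in P vs sham (median -0.83) and 47 of 54 above 0 in P+eMSC vs P (median 1.15). Without mouse 52 the matrix medians were -0.63 and 1.03, and *Mmp2* no longer had an unadjusted p below 0.05 in P+eMSC vs P. With the panel median the chemokines and most matrix genes were on opposite sides of 0, but none of these shifts had an unadjusted p below 0.05. Some were close to 0, such as *Cxcl12* (-0.019) and *Mmp2* (0.0088) in P vs sham and *Ccl11* (0.045) in P+eMSC vs P. The matrix genes then lay 6 above 0 in P vs sham (median 0.21) and 1 above and 5 below in P+eMSC vs P (median -0.30). Without mouse 52 these panel medians were -0.10 and 0.0076, close to 0.

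The summed level of these 6 genes lay between -3.01 and -0.54 in sham, between -10.63 and -0.61 in P (-4.27 and -0.61 without mouse 52) and between -3.87 and 0.85 in P+eMSC at 6 weeks. At 1 week it lay between -4.91 and 1.05 in sham mice, -5.18 and 0.37 in mice with P, and -6.59 and 0.37 with P+eMSC. The groups overlapped throughout. The share of the chemokine differences that goes with the amount of stroma sampled was not tested.

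Of 6 myeloid genes listed, 4 were measured (*Ccr1*, *Ccr2*, *Mrc1* and *Il1b*). Their shifts in P vs sham at 6 weeks were split, 2 above 0 and 2 below, with a median of -0.38, and in P+eMSC vs P at 6 weeks they were again split, with a median of 0.43. None was called. With the panel median 3 lay above 0 and 1 below in P vs sham (median 0.63), *Il1b*, an inflammatory cytokine gene, being higher at an unadjusted p below 0.05 (exact p = 0.0350, adjusted p = 0.315). In P+eMSC vs P all 4 lay below 0 (median -0.88). Without mouse 52 the genes were split 2 and 2 in both comparisons with either reference. Their summed level at 6 weeks lay between -8.08 and -4.52 in sham, between -16.59 and -5.51 in P (-9.85 and -5.51 without mouse 52) and between -9.39 and -3.67 in P+eMSC. At 1 week it lay between -9.78 and -3.54 in sham mice, -9.02 and -5.08 in mice with P, and -10.97 and -4.43 with P+eMSC. *Cdh1*, the epithelial cadherin, was at -1.30 in P vs sham and 1.37 in P+eMSC vs P at 6 weeks, without a call (exact p = 0.366 for the former), and at 0.13 and 0.42 with the panel median.

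The genes whose level was most like that of *Cxcl12* over the mice were *Mmp2* (Spearman correlation 0.92, n = 41), the mesenchymal cadherin *Cdh2* (0.92, n = 40), *Col6a2* (0.91, n = 41), *Tgfb1* (0.90, n = 41) and *Col6a1* (0.90, n = 40). The median over the 53 other genes was 0.73. Those most like *Ccl11* were *Timp2* (0.94, n = 41), *Cdh2* (0.88, n = 40), *Mmp2* (0.87, n = 41), *Cxcl12* (0.87, n = 41) and *Timp3* (0.86, n = 41), against a median of 0.70. The stromal matrix genes as a list had a median correlation of 0.89 with *Cxcl12* and 0.78 with *Ccl11*, the other 11 ligands 0.66 and 0.53, and the myeloid genes 0.73 and 0.60. All of these points share 18S and the RNA of the mouse. Each chemokine also followed the median of the 21 other genes that had a Ct in every mouse (0.92 for *Cxcl12* and 0.86 for *Ccl11*).

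With the panel median as the reference the likeness thinned out, and the 2 chemokines parted. Their correlation with each other was 0.16 (0.24 without mouse 52). *Mmp2* was closest to *Cxcl12*, at 0.46, followed by *Mmp9*, *Arg1*, *Cdh2* and *Ctgf* (0.40 to 0.38). Without mouse 52 *Arg1* came first, at 0.49, and *Mmp2* second, at 0.44. *Timp2* remained closest to *Ccl11*, at 0.70, with or without mouse 52, followed by *Timp4* at 0.61, *Tgfb3* and *Fgf2* (0.49 and 0.48) and *Vegfa* (0.40). The stromal matrix genes had a median of 0.27 with *Cxcl12* and -0.15 with *Ccl11*. The other 11 ligands had a median of 0.12 with *Cxcl12* and -0.29 with *Ccl11*. A median over the panel, here with both chemokines in it, forces some correlations below 0. The median correlation over all 53 genes was 0.15 for *Cxcl12* and -0.19 for *Ccl11*.

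**Figure D5:**
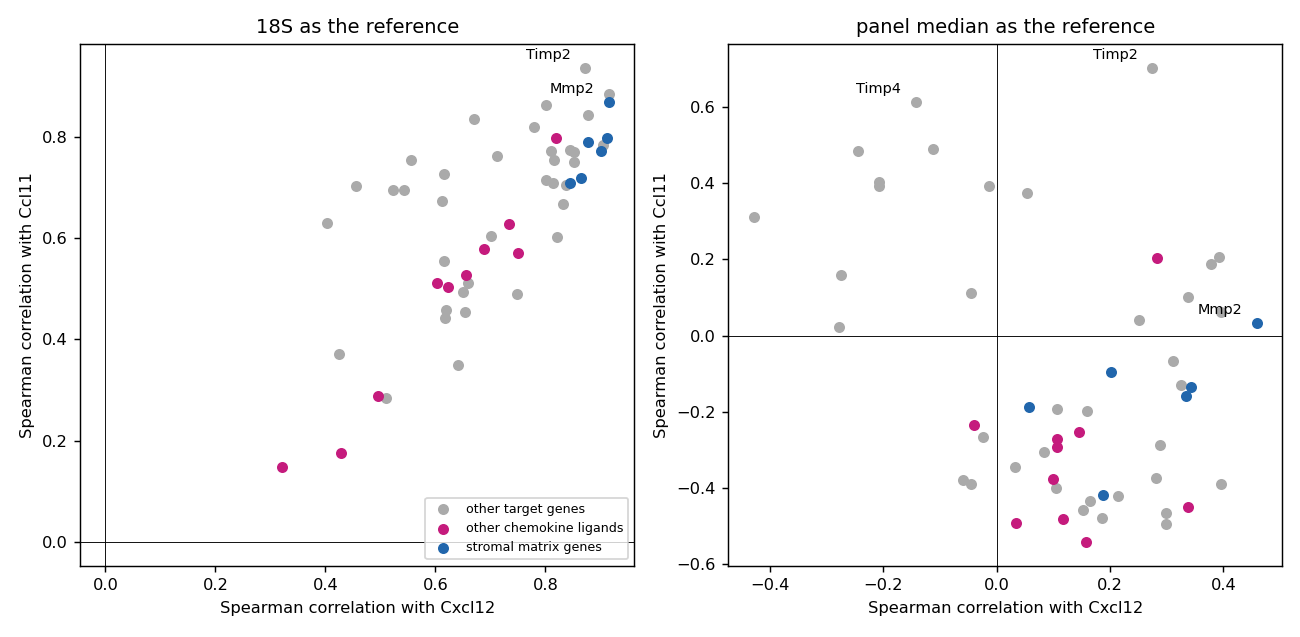
Spearman correlation of each other target gene's level with *Cxcl12* (horizontal axis) and with *Ccl11* (vertical axis) over the mice with both values, with 18S (left) or the panel median (right) as the reference. Against 18S the stromal matrix genes gather at the upper right. Against the panel *Timp2* (0.70) and *Timp4* (0.61) stand highest on the *Ccl11* axis and *Mmp2* (0.46) furthest along the *Cxcl12* axis.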

How the data were processed

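RNA was extracted from skin of 41 mice, reverse transcribed, preamplified with pooled TaqMan assays and read on a Fluidigm array. The first table deposited by the authors holds the Ct values (threshold cycles, not normalized). The second deposited table, of fold change ratios against sham, was not used. Groups followed the deposited labels, and mouse 2356 stayed in P at 6 weeks as titled, although an earlier analysis of these data had placed its fold changes against the 1 week controls.

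A level was 18S Ct minus gene Ct, and undetected values were left out. Each of 9 comparisons used a two-sided Mann-Whitney U test, exact by enumeration, on the 54 target genes with at least 4 values per group, Benjamini-Hochberg adjustment over the genes, a threshold of adjusted p below 0.05 and the Hodges-Lehmann shift with its exact 95% interval. The 3 interactions were fitted in limma 3.58.1 (R 4.3.3). Other steps used Python 3.11.15, scipy 1.17.1, numpy 2.4.6 and pandas 2.3.3. Alternatives were the panel median as the reference, a floor for undetected values, unadjusted p, limma, permutation of the mean and within the number series, mouse 2356 at 1 week, a limit of 25 on the median Ct of a gene, and leaving out mice. The tests were tested on simulated data. The 5 genes most like each chemokine by Spearman correlation were named, as were genes behind a count of 5 or fewer. Members, lists and tests were chosen with earlier results of these data known. Gene IDs came from RefSeq (GRCm38.p6).

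qPCR values carry no read depth, so the number of mice limits the precision. Nothing in the labels ties mice of different groups together, and p-values measure the spread between mice.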

Additional observations from a re-analysis of the deposited data

Results flagged for a closer look

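Of 18 groups of values examined (6 groups of mice for *Cxcl12*, *Ccl11* and the difference between them), 4 held a mouse far from the others, where chance alone gives about 1 in 20. The 18 are not independent, since the difference is made from the 2 levels. All but 1 of the 4 are the same mouse, 52, so the 4 cannot be read against that share. Mouse 52 of P at 6 weeks lay far below its group in *Cxcl12* (-17.34, next mouse -8.28) and in *Ccl11* (-15.15, next mouse -9.96), and its difference between the 2 genes was -2.19 while the other 7 mice had 0.66 to 2.14. The same mouse had 31 target genes without a Ct. Mouse 10 of P+eMSC at 1 week had a difference of 2.004, while the other mice of that group had 0.19 to 0.87.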

How the results depend on the processing

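No paired analysis was possible because each mouse has a number of its own and none is shared between groups. For the chemokines, their interactions and their difference, 33 results were recomputed under 769 alternatives. Of the alternatives, 693 kept the direction and the side of the threshold, 73 changed sign, 3 passed the threshold and 0 fell below it. Since none of the 33 passed the threshold to begin with, none could fall below it, and the 693 did not pass either. Counting unadjusted p below 0.05, leaving out mice 52 and 2356 together, leaving out mouse 52 together with the panel reference or the number series, and all alternatives for the counts of genes other than the panel reference and the limit on Ct were chosen after seeing the data.

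With the panel median as the reference the sign changed for *Ccl11* in P+eMSC vs sham at 1 week (0.21), *Cxcl12* in P+eMSC vs P at 1 week (0.13), P+eMSC vs sham at 6 weeks (*Cxcl12* -0.0019, *Ccl11* -0.079), 6 weeks vs 1 week in P (*Cxcl12* 0.21, *Ccl11* 0.45) and in P+eMSC (*Ccl11* -0.21), and in the interactions P vs sham (*Cxcl12* 0.055), P+eMSC vs sham (*Ccl11* -0.20) and P+eMSC vs P (*Ccl11* -0.11). *Cxcl12* in P+eMSC vs P at 1 week, near 0 to begin with, also changed sign with the mean in limma and the permutation test (0.083 each) and within the number series (0.48). *Cxcl12* in 6 weeks vs 1 week in P was 0.023 without mice 52 and 2356. The difference between the genes changed sign with the mean or with mouse 2356 at 1 week in P vs sham at 6 weeks (-0.062, -0.095), P+eMSC vs P at 6 weeks (0.18, 0.052) and 6 weeks vs 1 week in P (-0.074, -0.14). The cause was not tested.

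*Ccl11* in P vs sham (-1.48) and in P+eMSC vs P (1.73) at 6 weeks passed when the unadjusted p was used. In P vs sham at 6 weeks 2 genes were called, and 0 with the panel reference, the permutation tests, limma, mouse 2356 at 1 week or without mice 52 and 2356. At an unadjusted p below 0.05, 2 genes were called in P vs sham at 1 week, 12 in P vs sham at 6 weeks (6 with the panel reference), 10 in P+eMSC vs P at 6 weeks (2 with the panel reference) and 2 in sham between the weeks.

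Leaving out each mouse in turn gave -1.68 to -1.22 for *Ccl11* in P vs sham at 6 weeks and 0 to 10 genes called there. Signs changed in the ranges of *Ccl11* in P+eMSC vs sham at 1 week (-0.56 to 0.17) and 6 weeks (-0.24 to 0.33), P+eMSC vs P at 1 week (*Cxcl12* -0.48 to 0.60, *Ccl11* -0.15 to 0.72), *Cxcl12* in P+eMSC vs sham at 6 weeks (-0.075 to 0.79) and 6 weeks vs 1 week in P (-0.60 to 0.26), and *Ccl11* in the interaction P+eMSC vs sham (-0.22 to 0.68). For the difference between the genes they changed in P vs sham at 1 week (-0.41 to 0.0082) and 6 weeks (-0.095 to 0.41), P+eMSC vs sham at 6 weeks (-0.068 to 0.058), P+eMSC vs P at 6 weeks (-0.16 to 0.052) and sham between the weeks (-0.14 to 0.075). The alternatives in which undetected values were set below the lowest level left both chemokines as they were, since every mouse had a Ct.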
